A study of Mus musculus with 9 samples.

Results

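Histone messenger RNAs were examined in a CELF2 RNA immunoprecipitation (RIP) experiment on newborn mouse cortex. The members were the protein-coding genes whose symbol began with Hist1h, Hist2h, Hist3h, Hist4h, H1f, H2af, H2ac, H2bc, H2az, H3f, H3c or H4c, matched by the current RefSeq symbol (73 genes) or by an older symbol of the same gene (12 genes). This gave 85 of 21250 protein-coding genes, of which 67 were clustered histone genes and 18 were variant histone genes. The study used cortices of mice heterozygous for a knocked-in CELF2 p.R493H allele, dissected at postnatal day 0, and all 9 libraries came from animals of this genotype. From the cytoplasmic fraction, 3 libraries were made from RNA recovered with an antibody to CELF2 (10 µg, raised in rabbit, 3 h; CELF2-KI RIP), 3 from RNA recovered in the same way with normal rabbit IgG (IgG RIP) and 3 from lysate set aside beforehand (input). Wild-type animals were not part of these libraries, so no value below separates the mutant protein from wild-type CELF2. The fraction holds neurons, glia and vascular cells together, so the cell type that an mRNA came from cannot be told. The 3 conditions are portions of such fractions, so differences between them describe recovery relative to other mRNAs, not cell numbers.

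Clustered, or replication-dependent, histone genes encode the bulk of the core histones H2A, H2B, H3 and H4 and the linker histone H1, and are transcribed mainly during S phase to package newly made DNA. Their short, intronless mRNAs typically end in a conserved stem-loop bound by SLBP instead of a poly(A) tail. Variant, or replacement, histones such as H3.3, H2A.Z, H2A.X and macroH2A are made outside S phase too, mostly from polyadenylated mRNAs, and are the forms that non-dividing cells such as neurons can still lay down. CELF2 is an RNA-binding protein of the CELF family that acts on splicing in the nucleus and on mRNA stability and translation in the cytoplasm.

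The members that departed from the family were mainly H4 genes, so 150 bases upstream of the start of 5 H4 genes are shown, each read 5′ to 3′ up to the base before the annotated start. They were taken from the RefSeq promoter table (GRCm38.p6), which held 79 of the 85 members. H4c8 (chr13:23530894-23531043, + strand) and H4c3 (chr13:23698459-23698608, − strand) are shown as 2 of the H4 genes that fell most in CELF2-KI RIP relative to the controls. H4c9 (chr13:22041363-22041512, − strand), H4c17 (chr13:21811596-21811745, + strand) and H4c18 (chr13:21832198-21832347, − strand) are shown because they were the H4 genes with more RNA in CELF2-KI RIP than in IgG RIP. Capitals mark a run of 38 bases that the latter 3 genes share.
H4c8: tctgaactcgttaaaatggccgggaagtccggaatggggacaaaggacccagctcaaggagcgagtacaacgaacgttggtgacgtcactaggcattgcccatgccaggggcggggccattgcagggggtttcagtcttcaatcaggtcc
H4c3: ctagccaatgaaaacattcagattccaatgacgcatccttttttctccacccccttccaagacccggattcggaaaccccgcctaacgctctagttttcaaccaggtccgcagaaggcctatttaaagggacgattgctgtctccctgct
H4c9: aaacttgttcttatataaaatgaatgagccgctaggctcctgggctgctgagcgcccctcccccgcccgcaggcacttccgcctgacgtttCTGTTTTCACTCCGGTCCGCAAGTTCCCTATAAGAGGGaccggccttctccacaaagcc
H4c17: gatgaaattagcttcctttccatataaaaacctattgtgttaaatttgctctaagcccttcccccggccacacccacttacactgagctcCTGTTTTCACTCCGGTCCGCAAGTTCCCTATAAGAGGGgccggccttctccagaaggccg
H4c18: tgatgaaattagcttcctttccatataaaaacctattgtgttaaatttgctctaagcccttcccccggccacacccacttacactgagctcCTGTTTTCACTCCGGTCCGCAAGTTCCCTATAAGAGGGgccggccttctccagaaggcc

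The libraries held 15919600 to 20052716 estimated counts in CELF2-KI RIP, 17365561 to 28773130 in IgG RIP and 69125700 to 105116427 in input. Transcript rows without a current gene took 41.5% to 43.5% of the counts in IgG RIP replicates 1 and 2, 21.1% in IgG RIP replicate 3 and 9.27% to 12.6% in the other 6 libraries, so IgG RIP replicate 3 stood apart from the other IgG RIP libraries. Of the 85 histone genes, 73 reached 0.5 CPM (counts scaled to a common library size) in at least 3 libraries and were tested, namely 63 clustered and 10 variant genes. The 12 untested genes included the testis forms H1f6, H2ac1 and H2bc1, with at most 33, 12 and 7 estimated counts in any library, and H3f3c, which had no transcript row. Among the others, H2ab1, H2ab2, H2al2a and H1f7 had at most 1 count in any library, which is under the floor of 3 counts used here.

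Clustered histone mRNAs were depleted in CELF2-KI RIP against both controls. Summed over the clustered genes, the 3 CELF2-KI RIP libraries held 1772, 1476 and 1184 CPM. The 3 IgG RIP libraries held 3281, 3555 and 6113 CPM, and the 3 input libraries held 5124, 4766 and 4863 CPM. Every CELF2-KI RIP library was below every control library, and IgG RIP replicate 3 was the highest of all 9. As a share of all protein-coding counts, clustered histones took 0.0981% to 0.156% in CELF2-KI RIP, 0.350% to 0.642% in IgG RIP and 0.544% to 0.582% in input.

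The variant histones did not follow against IgG RIP, but their sum was lower than in input. Their summed level was 1164, 1073 and 994 CPM in the CELF2-KI RIP libraries, 716, 774 and 907 CPM in IgG RIP and 1184, 1206 and 1214 CPM in input. CELF2-KI RIP thus lay above every IgG RIP library and below every input library, in a sum that includes the H3f3b rows described below. That order over IgG RIP rested on the scaling, because as an unscaled share of protein-coding counts the variants took 0.0823% to 0.102% in CELF2-KI RIP and overlapped the 0.0765% to 0.0952% of IgG RIP. It also rested on the reads assigned to 1 predicted H3f3b transcript, without which the summed levels of CELF2-KI RIP and IgG RIP overlapped. Those reads were dropped, not reassigned to the curated transcript. The predicted row held 4558, 4750 and 4567 estimated counts in CELF2-KI RIP and 2155, 1000 and 1770 in IgG RIP. The ratio of the clustered sum to the variant sum was 1.36 ± 0.17 in CELF2-KI RIP, 5.30 ± 1.24 in IgG RIP and 4.09 ± 0.20 in input (mean ± SD, n = 3). The ranges of this ratio did not overlap between CELF2-KI RIP (1.19 to 1.52) and the 6 control libraries (3.95 to 6.74). Its variant sum includes the predicted H3f3b row, which made up a larger share of that sum in CELF2-KI RIP than in the controls. The size of the ratio therefore depended on that row.

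**Figure D1:**
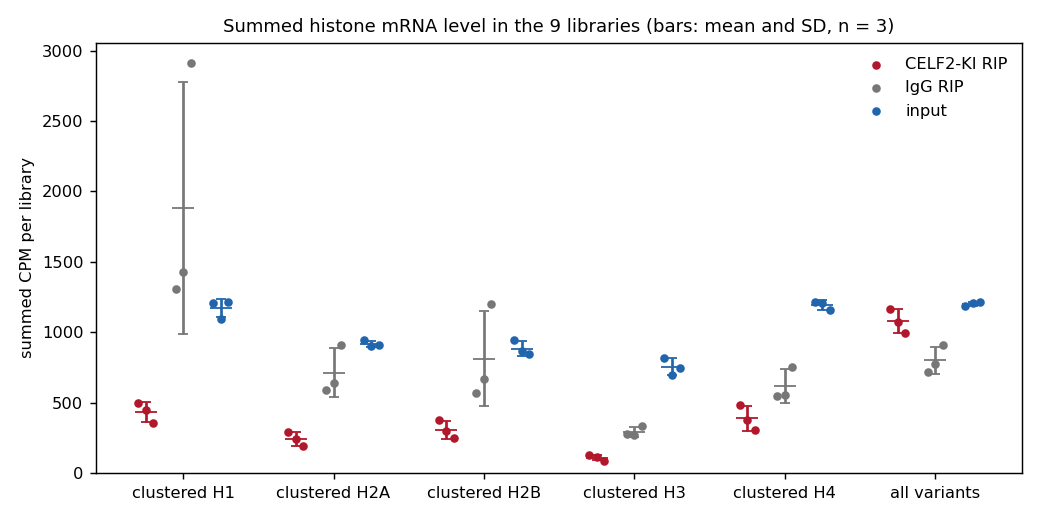
Summed level (CPM per library, linear axis from 0) of the clustered genes of each histone type and of all variants. Points are libraries and bars give the mean and SD of 3 libraries. CELF2-KI RIP is lowest in every clustered type, while the variant sum of 994 to 1164 CPM lies above the IgG RIP range of 716 to 907 CPM. The latter order rests on the scaling and on the reads assigned to a predicted H3f3b transcript.

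Gene by gene, 55 of the 63 tested clustered genes were lower in CELF2-KI RIP than in IgG RIP, 3 were higher and 5 were not called, with a median log2 fold change of -1.77 (quartiles -2.26 and -1.55). A call required an FDR under 0.01 in edgeR's quasi-likelihood test over all 15263 tested genes and a change of at least 2-fold. Over all tested genes, 13.5% were called lower and 13.4% higher in this comparison, and the median was -0.06. Against input, 56 clustered genes were lower and 1 was higher, with a median of -2.09, whereas 15.5% of all tested genes were lower and 14.6% higher with a median of 0.19. Below both controls were 54 clustered genes, beside 9.52% of all tested genes. No clustered gene was called above both controls by edgeR or by DESeq2, beside 7.58% of all tested genes, although 3 were above both at an unadjusted p under 0.05 in edgeR. In 55 clustered genes all 3 CELF2-KI RIP libraries lay below all 6 control libraries, an order seen in 19.9% of all tested genes. In 3 clustered genes they lay above all 6, beside 25.2% of all tested genes.

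The 10 tested variants did not fall together against IgG RIP. Of these, 2 were higher, beside 13.4% of all tested genes, and 3 were lower, beside 13.5%. The other 5 were not called, and the median was -0.27, beside -0.06. Against input, 5 were lower, beside 15.5% of all tested genes, and the median was -1.15, beside 0.19. None was called higher than input by edgeR or DESeq2, although 3 were higher at an unadjusted p under 0.05 in edgeR. Below both controls were 3 variants, beside 9.52% of all tested genes. The medians of the clustered and variant genes differed by -1.50 against IgG RIP and by -0.94 against input (log2). When this difference was computed per CELF2-KI RIP library its SD was 0.35 and 0.28 (n = 3). Of the 100 tested genes with the lowest log2 fold change, 5 were clustered histones against IgG RIP and 7 against input. The clustered genes were 63 of all 15263 tested genes. None was among the lowest 50 in either comparison.

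**Figure D2:**
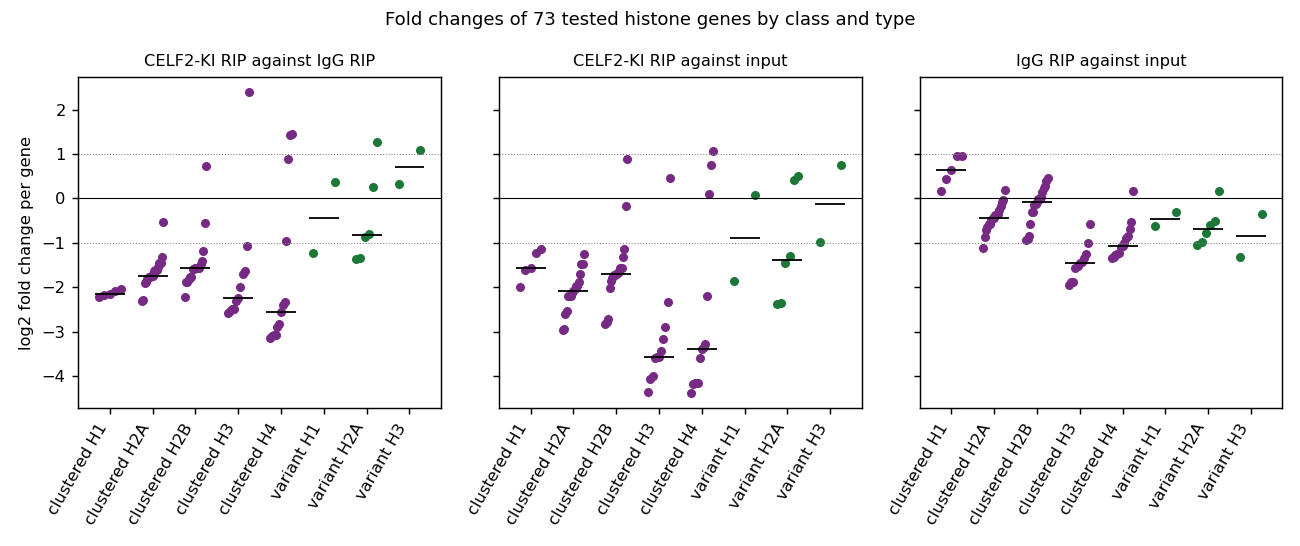
Log2 fold change (vertical axis) of each of the 73 tested histone genes in 3 comparisons, by class and type. Points are genes, black bars are medians and dotted lines mark 2-fold. Most clustered genes lie below the lower dotted line in the panels for CELF2-KI RIP, and 1 H3 gene at 2.39 and 2 H4 genes at 1.42 and 1.44 lie above the upper line against IgG RIP.

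Linker histone H1, which binds DNA between nucleosomes, was lower in CELF2-KI RIP for all 5 tested clustered genes against each control, with medians of -2.15 against IgG RIP and -1.57 against input. H1f4, which encodes H1.4, held 231, 225 and 174 CPM in the CELF2-KI RIP libraries, 604, 655 and 1399 CPM in IgG RIP and 460, 408 and 511 CPM in input. All CELF2-KI RIP libraries lay below all controls, and IgG RIP replicate 3 was more than any other library. Its log2 fold change was -2.08 (SE 0.29, FDR 0.000199) against IgG RIP and -1.13 (SE 0.29, FDR 0.00623) against input. H1f2 and H1f3 had log2 fold changes of -2.15 and -2.18 against IgG RIP and of -1.99 and -1.23 against input. With the replicate number as a block, the calls of H1f3 and H1f4 against input ended (log2 fold change -1.21, FDR 0.0105, and -1.09, FDR 0.0102). Without IgG RIP replicate 3, the H1 median against IgG RIP was -1.61 and all 5 genes were still lower.

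The core histones H2A and H2B form the dimers at the outer part of the nucleosome. Of 17 tested clustered H2A genes, 16 were lower than IgG RIP and all 17 were lower than input, with medians of -1.74 and -2.09. H2ac18 held 69.7, 49.7 and 41.0 CPM in the CELF2-KI RIP libraries, 141, 168 and 283 CPM in IgG RIP and 208, 193 and 222 CPM in input, without overlap, and its log2 fold changes were -1.89 (SE 0.27, FDR 0.000196) and -1.96 (SE 0.27, FDR 0.000132). H2ac24 had log2 fold changes of -1.45 and -1.48. H2aw was the exception among the H2A genes: its levels of 65.1, 43.9 and 42.9 CPM overlapped the IgG RIP levels of 64.3, 69.4 and 87.5 CPM, and it was lower than input only (log2 fold change -1.25, FDR 0.000180).

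Of 17 tested clustered H2B genes, 15 were lower than IgG RIP and 14 lower than input, with medians of -1.56 and -1.70. H2bc6 and H2bc4 had log2 fold changes of -1.77 and -1.89 against IgG RIP and of -1.73 and -1.67 against input. H2bc23 and H4bc24, an H2B gene despite its symbol, had identical estimated counts in every library, so their reads cannot be told apart and they amount to 1 measurement. Those not called against input were H2bc8, H2bc21 and H2bc11, of which H2bc21 and H2bc11 were picked out after their values were seen. H2bc8 held 110, 73.9 and 74.5 CPM in the CELF2-KI RIP libraries, 81.2, 83.9 and 216 CPM in IgG RIP and 97.6, 92.5 and 98.8 CPM in input, so its groups overlapped. Its log2 fold change against IgG RIP was -0.56 (FDR 0.188), and 0.06 without IgG RIP replicate 3. H2bc21 lay above all 6 controls, at 10.6, 11.2 and 10.3 CPM against 4.52 to 7.53 CPM, with log2 fold changes of 0.73 (FDR 0.0156) and 0.88 (FDR 0.00452) that did not reach 2-fold. H2bc11 fell by 1.41 against IgG RIP (FDR 0.00462), a call that ended with the replicate block (FDR 0.0139).

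H3, which with H4 forms the central tetramer of the nucleosome, was depleted most in CELF2-KI RIP relative to input, with a median of -3.56 over 11 tested clustered genes against -2.23 relative to IgG RIP. In each comparison 10 of the 11 were lower. H3c6 held 15.8, 16.7 and 10.4 CPM in the CELF2-KI RIP libraries, 54.2, 51.2 and 65.4 CPM in IgG RIP and 164, 141 and 158 CPM in input, 3 levels with no overlap. Its log2 fold changes were -1.99 (SE 0.18, FDR 1.7e-05) and -3.43 (SE 0.19, FDR 7.4e-07). Those of H3c13 were -2.31 and -2.89, and those of H3c2 were -1.07 and -2.32. The exception was H3c10, which held 43.5, 36.5 and 33.7 CPM in the CELF2-KI RIP libraries, 7.89, 5.16 and 8.53 CPM in IgG RIP and 29.5, 19.5 and 34.6 CPM in input. Every CELF2-KI RIP library was above every IgG RIP library, and the ranges of CELF2-KI RIP and input overlapped. Its log2 fold change was 2.39 (SE 0.26, FDR 3.7e-05) against IgG RIP, the highest of any histone gene, and 0.45 (SE 0.23, FDR 0.125) against input.

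H4 genes moved in both directions. Of 13 tested clustered genes, 9 were lower and 2 higher than IgG RIP, and 10 were lower and 1 higher than input, with medians of -2.55 and -3.38. H4c8, on chromosome 13 at 23531044 to 23531478, held 12.6, 11.6 and 10.5 CPM in the CELF2-KI RIP libraries, 111, 91.1 and 93.1 CPM in IgG RIP and 207, 206 and 214 CPM in input. The 3 conditions were fully separated, and the log2 fold changes were -3.09 (SE 0.13, FDR 3.9e-06) and -4.18 (SE 0.13, FDR 7.5e-08). H4c3 held 6.48, 6.01 and 5.80 CPM against 39.1 to 71.5 CPM in IgG RIP and 124 to 133 CPM in input, and had log2 fold changes of -3.07 and -4.38. For H4c11, H4c1 and H4c6 they were -3.15, -3.08 and -2.89 against IgG RIP and -4.15, -4.15 and -4.16 against input. For H4c4, among the 3 H4 genes with the most reads, they were -2.55 and -3.38. H4f16, a lone H4 gene on chromosome 6 also picked out after its values were seen, fell by 2.19 against input and was not called against IgG RIP (-0.96, FDR 0.0227).

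H4c9, H4c17 and H4c18 ran the other way, and H4c9 and H4c17 were picked out after their values were seen. H4c17 held 155, 117 and 102 CPM in the CELF2-KI RIP libraries, 42.9, 39.5 and 56.9 CPM in IgG RIP and 121, 134 and 95.9 CPM in input. It was higher than IgG RIP (log2 fold change 1.42, SE 0.20, FDR 0.000210) and overlapped input (0.09, SE 0.20, FDR 0.714), a value that was below 0 under every other scaling tried. H4c9 held 41.8, 39.9 and 31.3 CPM in CELF2-KI RIP against 11.8, 10.9 and 18.8 CPM in IgG RIP and 22.4, 22.5 and 21.9 CPM in input. Its CELF2-KI RIP libraries lay above all controls, with log2 fold changes of 1.44 (SE 0.21, FDR 0.000248) and 0.76 (SE 0.20, FDR 0.00837), the latter under 2-fold. H4c18 held 190, 152 and 113 CPM in the CELF2-KI RIP libraries, 60.8, 83.6 and 102 CPM in IgG RIP and 78.2, 67.4 and 73.3 CPM in input, again above all controls. Against input it was called higher (1.06, SE 0.21, FDR 0.00172), but the call ended under each other scaling tried (0.60 to 0.92), with no filter (0.94) and with the DESeq2 test (0.92). It also ended without CELF2-KI RIP replicate 1 (0.86) or without any 1 of the input libraries (0.89 to 1.0, FDR 0.0105 to 0.0175). Against IgG RIP it reached 0.89 (SE 0.22, FDR 0.00549). These 3 genes supplied 79.9%, 82.4% and 80.5% of the clustered H4 level in the CELF2-KI RIP libraries, 21.2% to 24.2% in IgG RIP and 16.5% to 18.5% in input.

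**Figure D3:**
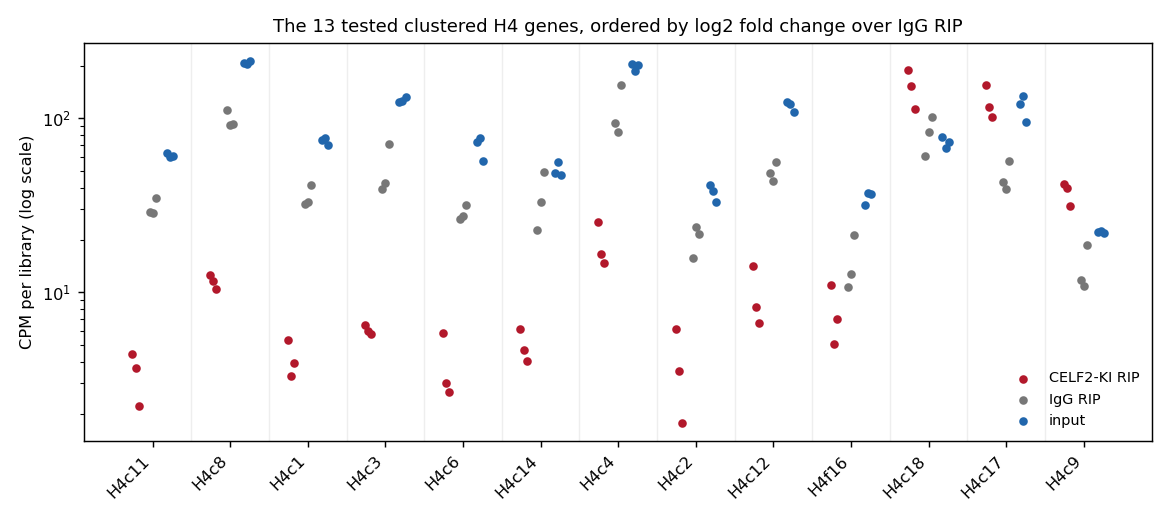
Level of the 13 tested clustered H4 genes (CPM per library, logarithmic axis), ordered by log2 fold change against IgG RIP. Points are libraries. H4c9, H4c17 and H4c18 are the genes whose CELF2-KI RIP points lie above all IgG RIP points, whereas in H4c8 they lie at 10.5 to 12.6 CPM, under controls of 91.1 to 214 CPM.

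In the promoter sequences shown above, the 38-base run began 59, 60 and 59 bases before the start of H4c9, H4c17 and H4c18 and ended 22, 23 and 22 bases before it. It was picked as the longest stretch common to these 3 genes, so its presence in them was fixed beforehand. Among the 12 H4 promoters and all 17491 promoters it was found in these 3 only. H4c17 and H4c18 were identical over 149 aligned bases, so these were near-identical copies upstream and reads from their mRNAs may be split uncertainly between them. Windows were compared without gaps and with a shift of at most 3 bases. In that comparison H4c9 matched them at 51.7% and 51.3% of positions, and the other 63 pairs of H4 promoters matched at 24.3% to 40.9%. The matches of H4c9, 77 of 149 and 77 of 150 bases, include the 38-base run, so they are no separate likeness of these 3 genes. A long shared run was not unique to them, because H4c11 and H4c12 shared 55 bases. That pair scored only 26.4%, so the comparison misses likeness in stretches that lie further out of step, and these percentages do not rank the pairs. Across the family, the letters TATAAA, the core of the promoter box of that name, stood on either strand within 250 bases upstream in 46.8% of 62 clustered promoters, 5.88% of 17 variant promoters and 12.4% of all promoters. CCAAT stood in 82.3%, 58.8% and 36.3%, and in every H1, H2A and H2B clustered promoter but in 3 of 12 H4 promoters. ATTTGCAT, the octamer known from H2B promoters, stood in 13 of 62 clustered promoters (7 H2A and 6 H2B), 5.88% of variant and 1.61% of all promoters. No motif of these 3 contains another, and the matches describe the letters in that window only.

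Histone genes that departed from the family lay among depleted neighbours. The clustered genes on chromosome 13 formed a part at 21715711 to 22043658, with 19 of 23 tested genes lower than IgG RIP and a median of -1.56, and a part at 23531044 to 23934913, with 27 of 28 lower and a median of -2.12. H3c10 lay 769 bp from H2ac13, whose log2 fold change was -1.81. H4c17 lay 828 bp from H2ac23 (-1.61), H4c18 lay 827 bp from H2ac24 (-1.45) and H4c9 lay 1116 bp from H2ac11 (-2.29). The cluster on chromosome 3 at 96219885 to 96270192 had 8 of 9 tested genes lower, with a median of -1.89.

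**Figure D4:**
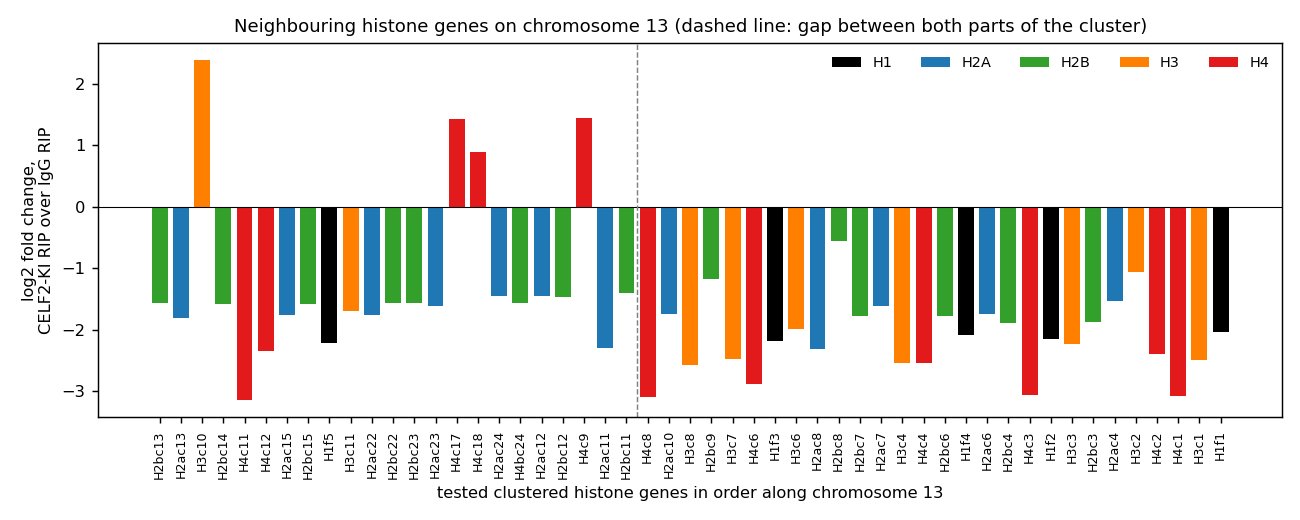
Log2 fold change against IgG RIP (vertical axis) for the tested clustered histone genes in their order along chromosome 13, coloured by type. Bars start at 0 and the dashed line separates both parts of the cluster. H3c10, H4c17, H4c18 and H4c9, at 2.39, 1.42, 0.89 and 1.44, stand among neighbours below 0.

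Among the variants, the H3.3 genes H3f3a and H3f3b encode the same replacement H3 protein from different mRNAs. H3f3b held 533, 521 and 465 CPM in the CELF2-KI RIP libraries, 223, 223 and 262 CPM in IgG RIP and 289, 303 and 311 CPM in input. It lay above all controls, with log2 fold changes of 1.10 (SE 0.11, FDR 2.2e-05) and 0.75 (SE 0.11, FDR 0.000164). This rested on the reads assigned to a predicted transcript: with curated transcripts alone its log2 fold changes were -0.02 and -0.01. That setting dropped the predicted row without reassigning its reads, so it leaves out part of the reads of H3f3b. Without any 1 of the input libraries, which share the fit, its change over IgG RIP came to 1.0 and no longer passed, nor did it with total-count scaling (0.73). H3f3a held 170, 150 and 121 CPM in the CELF2-KI RIP libraries, 96.9, 110 and 146 CPM in IgG RIP and 291, 297 and 292 CPM in input. CELF2-KI RIP overlapped IgG RIP and lay below input, with log2 fold changes of 0.32 (FDR 0.128) and -0.99 (FDR 0.000518), the latter just short of 2-fold.

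The H2A.Z genes went opposite ways. H2az2, which encodes H2A.Z.2, held 56.8, 50.8 and 38.4 CPM in the CELF2-KI RIP libraries, 21.5, 16.4 and 22.6 CPM in IgG RIP and 34.5, 35.1 and 33.5 CPM in input. It lay above all controls and was called against IgG RIP (1.27, SE 0.18, FDR 0.000175) but not against input (0.50, SE 0.17, FDR 0.0262), and with total-count scaling its change over IgG RIP was under 2-fold (0.91). H2az1, which encodes H2A.Z.1, held 15.7, 11.9 and 13.6 CPM against 25.7, 40.2 and 41.0 CPM and 71.3, 76.4 and 62.2 CPM. It was lower than both controls, with log2 fold changes of -1.37 (SE 0.20, FDR 0.000227) and -2.35 (SE 0.20, FDR 9.6e-06). H2ax, whose product is phosphorylated at DNA breaks, was also lower than both (-1.33 and -2.38), at 10.6 to 16.1 CPM against 27.9 to 38.0 CPM and 66.7 to 73.2 CPM.

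H1f10, a replacement linker histone, was the remaining variant below both controls (-1.23 and -1.86). H1f0, the linker histone of differentiated cells, did not pass either test (0.37, FDR 0.0724, and 0.07, FDR 0.724). Macroh2a1, which encodes a large H2A variant of silent chromatin, held 134 to 148 CPM in the CELF2-KI RIP libraries, 117 to 122 CPM in IgG RIP and 103 to 113 CPM in input, above all controls, with log2 fold changes of 0.25 (FDR 0.0407) and 0.42 (FDR 0.00315) that turned to -0.12 and -0.05 with total-count scaling. Against IgG RIP it was also -0.01 with upper-quartile factors, and against input -0.15 with curated transcripts alone. Its paralog Macroh2a2 was lower than input (-1.46) and under 2-fold against IgG RIP (-0.87, FDR 0.000258). H2aj had the same pattern, with -1.30 and -0.79.

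**Figure D5:**
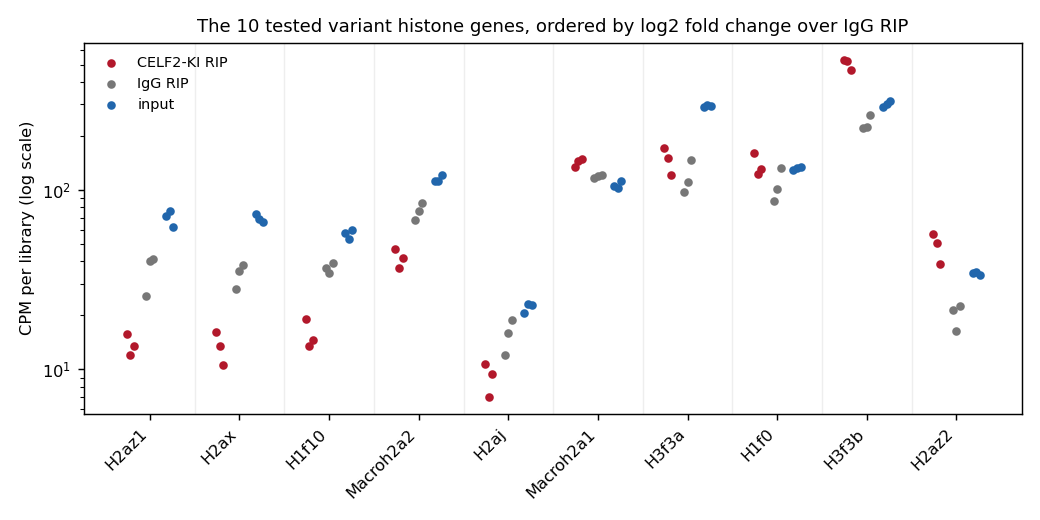
Level of the 10 tested variant histone genes (CPM per library, logarithmic axis), ordered by log2 fold change against IgG RIP. Points are libraries. H2az1 at 11.9 to 15.7 CPM and H2az2 at 38.4 to 56.8 CPM in CELF2-KI RIP lie on opposite sides of their IgG RIP points.

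The control pull-down also departed from input, by histone type. Between IgG RIP and input, 18 of 63 clustered genes were lower, beside 5.01% of all tested genes, and none was called higher by edgeR or DESeq2, beside 6.79% (2 were higher at an unadjusted p under 0.05 in edgeR). Of these 18, 10 were H3 and 8 were H4 genes, with medians of -1.45 and -1.06 for those types, while no H1, H2A or H2B gene was called. The largest changes were in H3c10 (-1.94), H3c7 (-1.88), H3c11 (-1.87), H3c1 (-1.57) and H3c15 (-1.51). Over the 10 variants, H3f3a (-1.32) and H2ax (-1.05) were lower and none was called higher by edgeR or DESeq2 or had an unadjusted p under 0.05 in that direction. Clustered and variant medians were -0.57 and -0.61. IgG RIP and input are each compared with CELF2-KI RIP above, so the contrasts share libraries and are not independent.

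The genes that make and handle histone mRNAs did not move as a group. Of 14 genes of histone mRNA transcription and 3′ end processing, 2 were higher and 3 lower than IgG RIP, and 1 was higher and 3 lower than input. The medians were -0.06 and 0.08 beside -0.06 and 0.19 over all tested genes. Of all tested genes, 13.4% were higher and 13.5% lower than IgG RIP. Against input these shares were 14.6% and 15.5%, and 9.52% were below both controls. Lsm11, a subunit of the U7 snRNP that directs histone pre-mRNA cleavage, was the 1 gene higher than both controls, beside 7.58% of all tested genes. It held 166, 262 and 203 CPM against 82.5, 83.7 and 77.4 CPM in IgG RIP and 65.1, 65.3 and 63.0 CPM in input, with log2 fold changes of 1.38 and 1.71. Cpsf3, the endonuclease of that cleavage, was lower than both (-1.70 and -1.77). Slbp, the stem-loop binding protein, was higher than IgG RIP (1.10, FDR 0.000940) and under 2-fold against input (0.75, FDR 0.00664). Srrt of the same list was lower than IgG RIP (-1.69, FDR 4.7e-05) and not called against input (-0.20).

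Of 20 histone chaperone genes, which escort histones to and from DNA, 1 was higher and 4 lower than IgG RIP. Against input 2 were higher and 4 lower, and the medians were -0.12 and -0.13. The shares over all tested genes were 13.4% higher and 13.5% lower against IgG RIP, 14.6% and 15.5% against input, and 9.52% below both controls. Nap1l1, a chaperone of H2A and H2B, and Atrx, a remodeller that deposits H3.3, were lower than both, with -2.85 and -2.05 against IgG RIP. Of 24 genes of replication and S phase, 1 was higher (Cdk1, 1.31) and 2 lower than IgG RIP and 5 were lower than input, with medians of -0.35 and -0.33. Mki67, the proliferation marker, and Gins2, a subunit of the replicative helicase, were lower than both, with -1.75 and -2.23 against IgG RIP.

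Lists of cell type markers and other short genes were read beside the clustered histones. Over all tested genes, 13.5% were lower than IgG RIP, 15.5% lower than input and 7.58% higher than both. Of 7 radial glia and progenitor markers, 3 were lower than IgG RIP and 3 lower than input, with medians of -0.70 and -0.72, and their summed level was 134 to 183 CPM in the CELF2-KI RIP libraries, 314 to 358 CPM in IgG RIP and 379 to 400 CPM in input, none being at 0. Pax6 and Eomes of that list had log2 fold changes of 0.16 and 0.41 against IgG RIP. The 24 S phase genes summed to 463 to 575, 654 to 747 and 535 to 634 CPM, so that CELF2-KI RIP overlapped input. Of 5 erythroid markers, 5 and 4 were lower, with sums of 92.7 to 95.0, 366 to 584 and 877 to 1135 CPM. Of 6 excitatory neuron markers 3 were higher than both, with sums of 1569 to 2181, 852 to 984 and 910 to 1078 CPM. Neurod6 of that list had log2 fold changes of -0.14 and -0.64 and was not called. For 4 endothelial markers the medians were -0.46 and -0.72, and for 4 oligodendrocyte precursor markers -0.33 and -0.26. Medians were 0.71 and 0.49 for 5 inhibitory neuron markers, 0.43 and -0.45 for 4 microglial markers and 0.67 and 0.41 for 2 cortical markers. None of the inhibitory neuron markers was higher than both. The tested clustered histone genes had a median genomic span of 492 bp, against 24590 bp over all tested genes. The 53 other tested genes with a span of at most 1000 bp had medians of -0.93 against IgG RIP and -1.54 against input. Of these, 24.5% and 49.1% were called lower, beside 13.5% and 15.5% of all tested genes. The part of cell type and of mRNA length in the histone values was not tested.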

How the data were processed

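RNA was measured in 9 libraries of cortical cytoplasm, 3 per condition. Per the labels and the study's methods, the authors depleted rRNA, made directional libraries, trimmed reads with fastp 0.23.4, removed rRNA reads with Ribodetector 0.3.1 and quantified transcripts with kallisto 0.51.1. The deposited values are estimated counts per transcript, with no scaling for depth or length; the notes name the mm10 build. Transcript rows were joined to RefSeq genes (GRCm38.p6) by accession, summed per gene and rounded. All columns were used. Kallisto can split reads among near-identical histone genes, and reads carry no molecular identifiers.

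Protein-coding genes with 0.5 CPM in at least 3 libraries were tested with edgeR 4.0.16 (R 4.3.3, quasi-likelihood, TMM, a mean per condition over all 9 libraries) and Benjamini-Hochberg adjustment over 15263 genes. CPM values use the TMM-scaled library size. Calls needed an FDR under 0.01 and 2-fold. Alternatives used DESeq2 1.42.0, other scalings and filters, a replicate block, curated transcripts and libraries left out. The script was tested on simulated counts. Replicates are described as biological, without naming animals, so p-values measure the spread between libraries.

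The members and lists were chosen with earlier results of these data known, so no p is given over a list. Named genes were all tested variants, the 3 genes with the highest mean CPM of each clustered type, the 5 largest falls below both controls, the 5 largest called changes in IgG RIP against input, testis forms and related genes called against both controls. H4c9, H4c17, H4f16, H2bc11, H2bc21, Slbp, Srrt, Neurod6 and Cdk1, and the neighbours of genes that departed from the family, were added after their values were seen.

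Same-numbered CELF2-KI RIP and input libraries deviated together (correlations 0.185, 0.122 and 0.212 over 11532 genes), so those numbers may pair them. Same-numbered CELF2-KI RIP and IgG RIP libraries did not (-0.0702, 0.039 and -0.00919). The main fit ignored any pairing, which entered only through the replicate block among the alternatives.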

Additional observations from a re-analysis of the deposited data

How the results depend on the processing

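Scaling set the centre of each comparison: the median log2 fold change of all tested genes against IgG RIP was -0.06 with TMM and -0.42 with total counts, and against input it was 0.19 and -0.27. The share of lower calls rose accordingly, to 3421 lower and 937 higher against IgG RIP and to 3580 lower and 531 higher against input with total counts, from 2066 and 2050 and from 2364 and 2228. With DESeq2 size factors these counts were 2279 and 1839 and then 2712 and 1567. The counts of lower clustered genes against each control stayed within 1.5 times of those reported under every alternative but 1. Under glmTreat, which tests against 2-fold itself, 25 clustered genes were lower than IgG RIP, 36 lower than input, 22 lower than both and 1 higher than IgG RIP, and 0 variants were called against IgG RIP in either direction, 0 were lower than both, and 0 clustered and 0 variant genes were lower in IgG RIP than in input.

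The 1 clustered gene higher than input became 0 under DESeq2 size factors, total counts, upper-quartile factors, TMM over coding and noncoding genes, no filter, the DESeq2 test and glmTreat. Variants higher than IgG RIP numbered 0 with total counts and 1 with upper-quartile factors, TMM over coding and noncoding genes or curated transcripts, and variants lower than IgG RIP and lower than both numbered 5 with total counts, upper-quartile factors or TMM over coding and noncoding genes. At an FDR under 0.05 with no fold limit, 5 clustered genes were higher than IgG RIP, 3 higher than input and 3 higher than both; 3 variants were higher than input, 3 higher than both, 5 lower than IgG RIP and 5 lower than both; and in IgG RIP against input 2 clustered genes were higher and 7 variants lower. With curated transcripts, 10 clustered genes and 1 variant were lower in IgG RIP than in input.

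Changes of sign occurred in genes near 0. Against input, H4c17 and H1f0 came to -0.05 and -0.07 with DESeq2 size factors and with the DESeq2 test, -0.37 and -0.38 with total counts, -0.15 and -0.17 with upper-quartile factors, -0.29 and -0.31 with TMM over coding and noncoding genes and -0.03 and -0.05 with no filter. With total counts H3c10, Macroh2a1 and Cdk1 came to -0.01, -0.05 and -0.12 against input, and Macroh2a1 and H3f3a to -0.12 and -0.04 against IgG RIP. Macroh2a1 was -0.01 against IgG RIP with upper-quartile factors, Cdk1 was -0.05 against input with TMM over coding and noncoding genes, and with curated transcripts H3f3b was -0.02 and -0.01 and Macroh2a1 was -0.15 against input. The cause of these changes was not tested, except that H3f3b and Macroh2a1 lose their predicted transcripts when curated ones alone are used.

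Leaving out 1 library at a time gave 47 to 55 clustered genes lower than IgG RIP, 53 to 57 lower than input, 44 to 54 lower than both and 12 to 21 lower in IgG RIP than in input. It gave 3 to 4 clustered genes higher than IgG RIP, 0 to 1 higher than input and 0 to 1 higher than both, where the 1 was H4c18 without CELF2-KI RIP replicate 3 or IgG RIP replicate 3. Variants numbered 1 to 2 higher and 3 lower each time against IgG RIP, and 1 to 3 lower in IgG RIP than in input. Among single genes, H2bc8 ranged from -0.80 to 0.06 against IgG RIP, H1f0 from -0.06 to 0.15 and H4c17 from -0.14 to 0.22 against input, and H1f2 from -0.14 to 0.33 in IgG RIP against input. With the replicate block, the median log2 fold change of all genes was -0.04 against IgG RIP, and no named gene other than H1f3, H1f4 and H2bc11 changed its call. Counting error limits the lowest genes most, such as H3c7 in CELF2-KI RIP.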
